A study of Bos taurus with 20 samples.

Results

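COX8A (ENSBTAG00000004920), SLC25A39 (ENSBTAG00000019463) and TECR (ENSBTAG00000012632) are 3 bovine genes of mitochondrial and lipid metabolism. They were taken by identifier from the 24616 gene rows in each file of a study of feed efficiency in beef steers, and their level, spread and covariation were followed across all 20 libraries. All 3 were among the 14293 genes that passed the low count filter. They stand in the study's own gene list, which was chosen on these animals, so they are not a chance draw from the table.

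COX8A encodes a small nuclear-encoded subunit of cytochrome c oxidase, the terminal enzyme of the respiratory chain in the inner mitochondrial membrane. SLC25A39 encodes a carrier of the same membrane that brings glutathione, the main thiol antioxidant, into the mitochondrial matrix. TECR encodes trans-2,3-enoyl-CoA reductase, an enzyme of the endoplasmic reticulum that carries out the last reduction of each round of very-long-chain fatty acid elongation. In the rumen wall, short-chain fatty acids from microbial fermentation are absorbed and partly oxidised, so the tissue is known for its mitochondria.

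The animals were Hereford x Angus steers kept in a feedlot, sampled at slaughter and grouped by residual feed intake (RFI), the difference between the feed an animal eats and the feed predicted from its growth and size. RNA came from rumen papillae, with 1 library per steer and none pooled, and the steers differed in no treatment. The sample labels put 11 steers in High RFI (inefficient) and 9 in Low RFI (efficient). The study's own list of animals names 9 H-RFI and 9 L-RFI steers, and it gives the opposite group for 6 of these 18 steers. Steers 23, 33, 47 and 205 are L-RFI in the list and High RFI in the labels, steers 219 and 455 are H-RFI in the list and Low RFI in the labels, and steers 281 and 345 are labelled Low RFI but are not in the list. The groups below are those of the labels, and the values by the list stand beside them. Each value column also carries a code of a letter (A, B or C), the letter D, 2 digits (01, 03 or 12) and a last digit. The 2 digits sort the libraries into a set of 8 coded 01 (5 labelled High RFI and 3 labelled Low RFI), a set of 6 coded 03 (3 and 3) and a set of 6 coded 12 (3 and 3). The codes ascend in the same order as the steer numbers, what they stand for is not stated in the sources used here, and whether code and steer number belong to the same animal could not be checked. All 9 libraries with the letter A are labelled High RFI, as are 2 of the 9 with B and neither of the 2 with C, so letter and label cannot be fully told apart.

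The deposited values are CPM, read counts scaled so that each library sums to 1000000. Whole reads could be recovered from every value above 0, and the libraries held between 9622534 and 13960297 reads. A gene at 0 could therefore lie at up to 0.215 to 0.312 CPM, the worth of 3 reads, which covers counting error only. Between 16165 genes (steer 47) and 17657 genes (steer 205) had at least 1 read. TMM scaling, which divides the values of a library by a factor so that the bulk of genes has a like level in all libraries, gave factors between 0.690 (steer 47) and 1.145 (steer 205). No pair of libraries was alike within sampling noise: of 190 pairs, the closest (steers 105 and 317) had a chi-square of 3.08 per degree of freedom. By the labels the steers are separate animals, and the tests below treat each library as 1 animal. If so, they measure the spread between animals together with that of library preparation. This rests on the labels, because the codes of the columns could not be checked against the animals.

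The tissue label was set against marker genes that could be identified. KRT14, a keratin of the basal layer of stratified epithelium, had between 0 and 16 reads per library, and ZNF750, a transcription factor of differentiating keratinocytes, had between 0 and 6 reads and was at 0 in 5 of the 20 libraries. Neither passed the low count filter. LYPD3, an antigen of the upper epidermal layers, had 31 to 79 reads. In contrast, KDR, a receptor of endothelial cells, had 130 to 809 reads, and MYL9, a myosin light chain of smooth muscle and stroma, had 3038 to 6295 reads. Of the 3 keratinocyte markers that could be looked up, KRT14 and ZNF750 were thus at or near 0 in libraries deposited as rumen epithelium, LYPD3 was low but read in every library, and the other markers of the list had no identifier here. In whole tissue, fewer cells of a type and less RNA per cell cannot be told apart.

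In the deposited values the 3 genes were present in all libraries at moderate to high depth. COX8A was covered by 557 to 1082 reads, and its lowest, median and highest levels were 50.3, 67.4 and 91.2 CPM. SLC25A39 was covered by 1661 to 3137 reads, with 150.9, 188.9 and 264.6 CPM. TECR was covered by 511 to 1096 reads, with 50.4, 71.95 and 106.2 CPM. CPM are not per length, so these levels compare libraries and not the 3 genes with each other. Counting error alone would give a coefficient of variation (CV) between 1.79% and 4.42% at these depths, whereas the CV over the 20 libraries was 18.2% for COX8A, 16.9% for SLC25A39 and 17.1% for TECR. The spread between libraries was therefore several times the counting error for each gene.

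Library scaling widened this spread. After TMM scaling COX8A lay between 44.7 CPM (steer 205) and 110.5 CPM (steer 47), SLC25A39 between 136.8 CPM (steer 51) and 351.4 CPM (steer 47), and TECR between 47.4 CPM (steer 219) and 153.9 CPM (steer 47). The CV rose to 30.6%, 32.2% and 33.3%. Steer 47, which had the lowest scaling factor, was the highest library for all 3 genes after scaling, but before scaling only for TECR. The highest deposited level of COX8A was in steer 317 and that of SLC25A39 in steer 345, both coded 12. The SD of the scaled log2 values was 0.42 for each of the 3 genes, against a median of 0.40 over all genes tested. Measured on the recovered reads as edgeR's biological coefficient of variation, the spread was 0.302 for COX8A, 0.301 for SLC25A39 and 0.304 for TECR, against a median of 0.314 over all genes tested. The 3 genes were thus about as variable as the typical gene of this table.

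**Figure D1:**
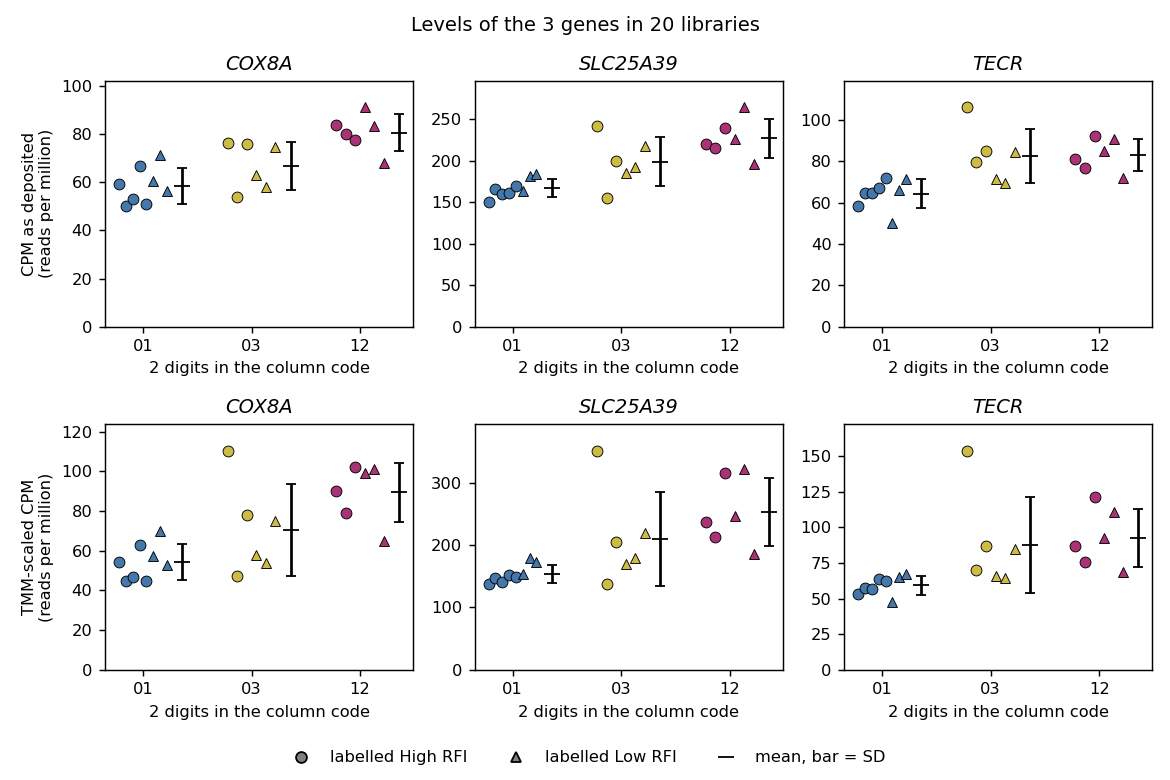
Level of COX8A, SLC25A39 and TECR in each of the 20 libraries, in CPM as deposited (top) and after TMM scaling (bottom), by the 2 digits of the column code. Circles are libraries labelled High RFI and triangles libraries labelled Low RFI, and the bars give the mean and SD of each set. The libraries coded 12 lie mostly above those coded 01 in both rows, while the symbols of the labels are mixed, and steer 47 stands at the top of the set coded 03 after scaling.

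The level of all 3 genes was higher in the libraries coded 12 than in those coded 01. For COX8A, the scaled level was 54.2 ± 9.10 CPM (SD, n = 8) in the libraries coded 01, 70.4 ± 23.0 CPM (SD, n = 6) in those coded 03 and 89.5 ± 15.01 CPM (SD, n = 6) in those coded 12. The lowest, median and highest scaled levels of COX8A were 44.7, 53.5 and 70.0 CPM with code 01, 47.4, 66.4 and 110.5 CPM with code 03, and 64.7, 94.7 and 102.2 CPM with code 12. The sets coded 12 and 01 overlapped for COX8A, because steer 409 (coded 12) lay below steer 451 (coded 01).

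SLC25A39 was at 154.0 ± 14.7 CPM (SD, n = 8) with code 01, at 209.9 ± 74.9 CPM (SD, n = 6) with code 03 and at 253.3 ± 54.8 CPM (SD, n = 6) with code 12. Its lowest, median and highest scaled levels were 137.8, 150.5 and 178.7 CPM with code 01, 136.8, 191.4 and 351.4 CPM with code 03, and 186.1, 241.9 and 321.3 CPM with code 12. All 6 libraries coded 12 were above all 8 coded 01, whereas the set coded 03 spanned the range of both. TECR was at 59.2 ± 6.60 CPM (SD, n = 8) with code 01, at 87.7 ± 33.8 CPM (SD, n = 6) with code 03 and at 92.7 ± 20.3 CPM (SD, n = 6) with code 12. The lowest, median and highest scaled levels of TECR were 47.4, 60.2 and 67.0 CPM with code 01, 64.6, 77.6 and 153.9 CPM with code 03, and 68.5, 89.8 and 121.5 CPM with code 12. The TECR levels coded 12 did not overlap those coded 01 either, but the gap was small, from 67.0 CPM (steer 455) to 68.5 CPM (steer 409). In deposited CPM the gap ran from 71.7 CPM (steer 205, exact 95% Poisson interval 67.2 to 76.5) to 72.2 CPM (steer 409, 67.3 to 77.2), which is within the counting error of either library. Over all genes tested, 9.68% had every library coded 12 above every library coded 01 after scaling, 9.45% had the reverse, and 7.33% had them above in the deposited values.

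The difference between the sets coded 12 and 01 passed the test across all genes for each of the 3. On the log2(scaled CPM + 1) scale, COX8A was higher by 0.71 (SE 0.16, limma, adjusted p = 0.00315), SLC25A39 by 0.69 (SE 0.16, adjusted p = 0.00335) and TECR by 0.62 (SE 0.17, adjusted p = 0.00566). These are ratios of 1.64, 1.62 and 1.53. With exact two-sided permutation tests over all 3003 assignments of the libraries, p was 0.000999 for COX8A and 0.000333, the smallest this design allows, for SLC25A39 and TECR. However, 62.5% of the 14293 genes were called in this contrast, 30.8% as higher and 31.6% as lower with code 12, so that 3 of 3 called genes is not far from what the table as a whole showed. Over the 3 sets together, the differences between set means held 51.0% of the variance of COX8A, 50.2% of that of SLC25A39 and 46.7% of that of TECR on the scaled log2 scale (limma F test, adjusted p = 0.0105, 0.0109 and 0.0138), and 53.7% of all genes were called. Of all genes tested, 88.2% had a smaller log2 difference than COX8A, 87.4% than SLC25A39 and 84.5% than TECR.

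The difference between the sets was present before scaling, but smaller. In deposited CPM it was 0.46 for COX8A, 0.44 for SLC25A39 and 0.36 for TECR (limma, adjusted p = 0.00294, 0.00249 and 0.00575). Without scaling the median of all genes moved to -0.23, and the calls shifted from 4407 higher and 4520 lower to 2905 higher and 5585 lower. Relative to the median of all genes, the 3 genes were higher by 0.69, 0.67 and 0.60 in deposited values and by 0.72, 0.70 and 0.63 after TMM scaling. The direction for all 3 was the same with RLE and upper quartile factors.

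The same direction was found within the code letters. Among the libraries with the letter A, all labelled High RFI, the set coded 12 was higher than that coded 01 by 0.88 (COX8A), 0.82 (SLC25A39) and 0.72 (TECR) on the log2 scale, and among those with the letter B by 0.66, 0.69 and 0.62. The 3 libraries coded 12 were above the 3 coded 01 for each gene within each letter (exact two-sided permutation p = 0.1, the smallest that 3 against 3 allows). For SLC25A39 and TECR this was fixed in advance, because the full sets coded 12 and 01 did not overlap. Their tests within the letters therefore add no support. How many of all genes had such a separation within a letter was not counted. For COX8A in letter B the gap was small, from 63.1 (steer 201) to 64.7 scaled CPM (steer 409). In deposited CPM it ran from 66.6 (Poisson interval 62.4 to 71.0) to 68.2 (63.5 to 73.1), within the counting error of either library. The difference did not differ detectably between the letters, with interaction estimates of -0.22 for COX8A (SE 0.38), -0.13 for SLC25A39 (SE 0.39) and -0.09 for TECR (SE 0.38). It did not differ detectably between the label groups either, where the estimate, Low RFI minus High RFI, was -0.30 for COX8A (SE 0.34), -0.25 for SLC25A39 (SE 0.34) and -0.07 for TECR (SE 0.34). For both interactions limma gave an adjusted p of 1 for all 3 genes and called 0 of 14293 genes.

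The mean level of the set coded 03 lay between those of the other sets for each gene, though its single libraries ranged more widely. Neither neighbouring pair of sets was separated by the test across all genes. Set 03 minus set 01 was 0.33 for COX8A, 0.38 for SLC25A39 and 0.50 for TECR (limma, adjusted p = 0.215, 0.187 and 0.142), in a contrast in which 0.385% of all genes were called. Exact two-sided permutation tests of the single genes gave p = 0.0866, 0.0216 and 0.002. Adjusted over the 9 such tests of 3 genes and 3 pairs of sets, p was 0.122, 0.039 and 0.0045. By these tests SLC25A39 and TECR passed and COX8A did not. Set 12 minus set 03 was 0.38 for COX8A (95% interval 0.01 to 0.75), 0.31 for SLC25A39 (-0.06 to 0.67) and 0.12 for TECR (-0.25 to 0.49), with adjusted p = 0.202, 0.262 and 0.642 (limma) and 0.553% of all genes called, 0.252% as higher. The exact permutation p-values were 0.0952, 0.199 and 0.613, and 0.122, 0.224 and 0.613 after the same adjustment. The 3 contrasts between sets share libraries pairwise and are not independent of each other.

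Steer 47 decided part of this. Without this library, set 12 minus set 03 rose to 0.54 for COX8A and 0.48 for SLC25A39, which both passed (limma, adjusted p = 0.0122 and 0.0127), and to 0.31 for TECR, which did not (adjusted p = 0.0693). The share of all genes called in that contrast was then 51.6%. Set 03 minus set 01 fell to 0.18, 0.22 and 0.31 without it, and set 12 minus set 01 stayed at 0.72, 0.70 and 0.62.

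Several library measures moved with the code sets. The TMM factor was 1.088 ± 0.0449 (SD, n = 8) with code 01, 0.994 ± 0.160 (SD, n = 6) with code 03 and 0.917 ± 0.112 (SD, n = 6) with code 12. The number of genes with a read was between 17088 and 17657 with code 01 and between 16479 and 17199 with code 12. Among the marker genes, MYL9 was higher with code 12 than with code 01 by 0.85 (SE 0.15, limma, adjusted p = 0.00193) and its deposited levels of 451.3 to 531.1 CPM did not overlap the 263.6 to 405.9 CPM of code 01. KDR was lower by 0.56 on the log2 scale (SE 0.23, adjusted p = 0.0413), and LYPD3 differed by 0.04 (SE 0.18, adjusted p = 0.845). The part of these measures in the levels of the 3 genes was not tested. KRT14 was at 0 to 9 reads with code 01, 1 to 6 with code 03 and 1 to 16 with code 12, and ZNF750 at 0 to 6, 0 to 3 and 0 to 2 reads.

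Residual feed intake, the comparison for which the samples were collected, showed no detectable difference in any of the 3 genes in these libraries. The study itself reports all 3 as differentially expressed and higher in L-RFI steers. It also reports them as higher in L-RFI steers by qPCR, in a larger number of animals. The scaled level of COX8A was 69.1 ± 24.2 CPM (SD, n = 11) in steers labelled High RFI and 70.2 ± 18.6 CPM (SD, n = 9) in those labelled Low RFI, with ranges of 44.7 to 110.5 CPM and 53.0 to 101.4 CPM. SLC25A39 was at 198.6 ± 75.5 CPM (SD, n = 11) and 203.0 ± 52.5 CPM (SD, n = 9), with ranges of 136.8 to 351.4 CPM and 154.0 to 321.3 CPM. TECR was at 80.9 ± 31.2 CPM (SD, n = 11) and 74.0 ± 18.8 CPM (SD, n = 9), with ranges of 53.5 to 153.9 CPM and 47.4 to 110.5 CPM. The label groups overlapped over most of their range for each gene.

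The log2 difference, Low RFI minus High RFI, was 0.06 for COX8A (SE 0.19, 95% interval -0.33 to 0.45), 0.08 for SLC25A39 (SE 0.19, -0.31 to 0.46) and -0.09 for TECR (SE 0.18, -0.47 to 0.30). Exact two-sided permutation tests over 167960 assignments gave p = 0.761, 0.691 and 0.659, and limma an adjusted p of 1 for each. Across all genes limma called 0 of 14293 (0%), with 110 at an unadjusted p under 0.05. Counted on the recovered reads, edgeR called 0 of the same 14293 genes, with 163 before adjustment. DESeq2, run without the low count filter, called 0 of 20064 genes, with 316 before adjustment.

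Grouping by the study's list gave no difference either. L-RFI minus H-RFI was -0.05 for COX8A (95% interval -0.46 to 0.36), 0.04 for SLC25A39 (-0.35 to 0.44) and 0.05 for TECR (-0.35 to 0.46), with exact permutation p = 0.801, 0.824 and 0.808 over 48620 assignments. Limma called 0% of the genes, with 63 before adjustment. The sign for COX8A and for TECR was thus opposite under labels and list, and each of these values was well within its error. For the 12 steers on which labels and list concur, the difference was 0.02, 0.05 and -0.05. With the code set as a term in the fit of the labels, it was -0.0038 for COX8A (SE 0.14), 0.01 for SLC25A39 (SE 0.14) and -0.16 for TECR (SE 0.14).

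Within single code sets the label groups are small. In the set coded 01, with 3 Low RFI and 5 High RFI libraries, SLC25A39 after scaling was at 154.0 CPM or more in all those labelled Low RFI. It was at 152.7 scaled CPM or less in all those labelled High RFI. This is a log2 difference of 0.21 (exact two-sided permutation p = 0.0179, the smallest possible here, and 0.161 adjusted over the 9 such tests). In deposited CPM the groups overlapped, with steer 205 (labelled High RFI) at 169.7 and steer 219 (labelled Low RFI) at 163.8. The share of all genes with such a separation was not counted. The scaled difference was not found by the study's list, where the same set gave -0.01 (exact p = 0.914). Nor was it found in the sets coded 03 and 12, where the labels gave -0.19 and -0.04 (exact p = 0.8 and 1, with a smallest possible p of 0.1). For COX8A the differences by label within the sets 01, 03 and 12 were 0.24, -0.27 and -0.05, and for TECR 0.01, -0.46 and -0.06, with a lowest exact p of 0.179.

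**Figure D2:**
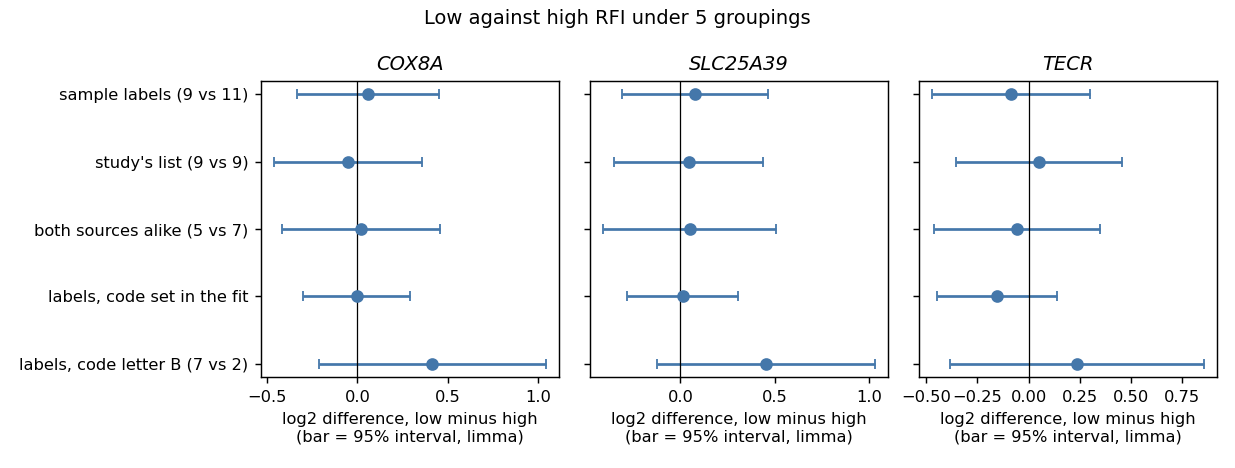
Log2 difference between low and high RFI for COX8A, SLC25A39 and TECR under 5 groupings, as limma estimates on log2(scaled CPM + 1) with 95% intervals. Each interval contains 0, and the estimates for the labels, the study's list and the steers alike in both lie between -0.09 and 0.08. In the letter B grouping the libraries labelled High RFI are all coded 01, so label and code set cannot be told apart there.

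The 3 genes rose and fell together across the libraries. After scaling, Pearson's r over the 20 libraries was 0.937 for COX8A with SLC25A39 (Spearman's rho 0.914), 0.861 for COX8A with TECR (rho 0.830) and 0.936 for SLC25A39 with TECR (rho 0.856). Each r had a permutation p of 1e-05, the smallest that 100000 permutations give, and the same value after adjustment over the 3 relations. Without the 2 libraries farthest from the median of the first gene, r was 0.917, 0.815 and 0.901. In the deposited values r was lower, at 0.822, 0.614 and 0.809 (rho 0.812, 0.681 and 0.838, permutation p for r = 6e-05, 0.00367 and 4e-05, adjusted p = 9e-05, 0.00367 and 9e-05).

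Such values were common in this table. Of the other 14292 genes, 6.09% had an r with COX8A as high as SLC25A39 had, and 17.8% as high as TECR had. For SLC25A39, 10.1% had an r as high as COX8A had and 10.2% as high as TECR had. For TECR, 16.5% had an r as high as COX8A had and 3.22% as high as SLC25A39 had. An r above 0.9 was reached by 13.0% of all genes with COX8A, 15.6% with SLC25A39 and 10.8% with TECR, and an r below -0.9 by 10.4%, 16.5% and 13.2%. In the deposited values, where r between the 3 genes was lower, the shares with as high an r were much the same. They were 5.28% (SLC25A39) and 17.0% (TECR) for COX8A, and 9.39% (COX8A) and 10.1% (TECR) for SLC25A39. For TECR they were 15.9% (COX8A) and 3.5% (SLC25A39). An r above 0.9, which none of the 3 pairs reached there, was found for 0.721%, 2.75% and 0.049% of the genes.

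The covariation was not the same in all code sets. Among the 8 libraries coded 01, r was 0.60 for COX8A with SLC25A39, 0.149 for COX8A with TECR and 0.555 for SLC25A39 with TECR (exact permutation p = 0.116, 0.726 and 0.150), and it fell to 0.286, 0.026 and 0.021 without the 2 farthest libraries. Among the 6 coded 03, r was 0.965, 0.930 and 0.927 (exact permutation p = 0.00556, 0.0125 and 0.0167), and among the 6 coded 12 it was 0.900, 0.906 and 0.984 (exact permutation p = 0.00278, 0.00556 and 0.00278). Adjusted over these 9 relations, the exact p-values were between 0.0125 and 0.025 with codes 03 and 12 and between 0.150 and 0.726 with code 01. The libraries coded 01 were also the narrowest set for all 3 genes on the scaled log2 scale. For COX8A this was by little (SD 0.233, against 0.258 with code 12). Whether r differed between the sets was not tested. In the deposited values, none of the 9 within-set relations passed after adjustment (lowest adjusted exact p = 0.0813), and r ranged from -0.195 (COX8A with TECR, code 01) to 0.922 (SLC25A39 with TECR, code 12).

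**Figure D3:**
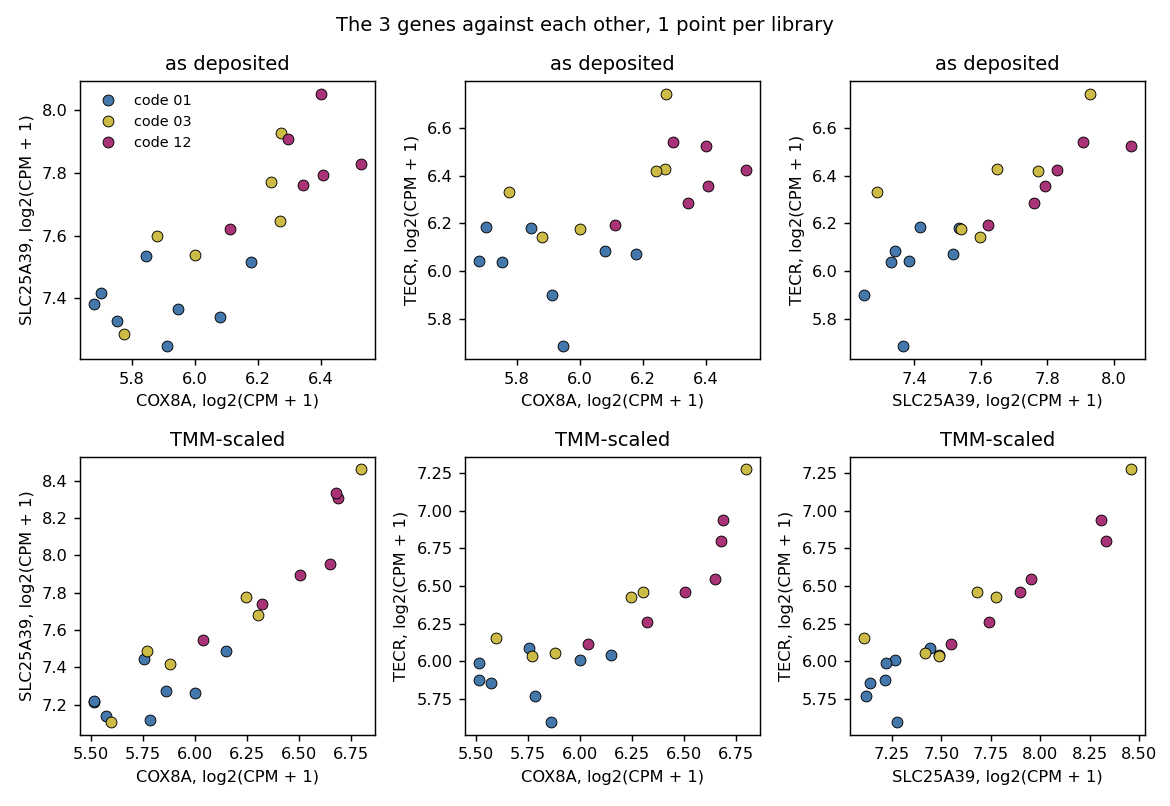
COX8A, SLC25A39 and TECR against each other as log2(CPM + 1), with 1 point per library coloured by the 2 digits of the column code, as deposited (top) and after TMM scaling (bottom). The scaled points follow a line (r between 0.861 and 0.937 over 20 libraries) along which the codes 03 and 12 are spread, while the 8 libraries coded 01 form a cloud at its lower end.

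The ratio of any pair of these genes within a library does not depend on library scaling. COX8A over SLC25A39 in CPM had a mean of 0.349 ± 0.0368 (SD, n = 20, CV 10.6%), COX8A over TECR 0.906 ± 0.141 (SD, n = 20, CV 15.6%) and SLC25A39 over TECR 2.594 ± 0.266 (SD, n = 20, CV 10.2%). The CVs of the ratios were below those of the scaled levels (30.6% to 33.3%), but that of COX8A over TECR was close to those of the deposited levels (16.9% to 18.2%). SLC25A39 over TECR was 2.62 ± 0.281 (SD, n = 8) with code 01, 2.418 ± 0.288 (SD, n = 6) with code 03 and 2.737 ± 0.108 (SD, n = 6) with code 12. The lowest value of this ratio was 1.952 in steer 51 and the highest 3.25 in steer 219.

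In the deposited values, which do not contain the scaling factor, the 3 genes still followed the measures that differed between libraries. The correlation of the deposited level with the TMM factor was -0.761 for COX8A (rho -0.920), -0.859 for SLC25A39 (rho -0.871) and -0.769 for TECR (rho -0.747), with permutation p for r = 6e-05, 1e-05 and 3e-05 and, adjusted over 12 relations, 9e-05, 3e-05 and 6e-05. Without the 2 libraries farthest from the median factor (steers 47 and 155), r was -0.907, -0.886 and -0.623. Within the sets coded 01, 03 and 12, r with the factor was -0.918, -0.737 and -0.364 for COX8A, -0.418, -0.863 and -0.853 for SLC25A39, and 0.179, -0.905 and -0.975 for TECR. Of these, COX8A with code 01 and TECR with code 12 passed after adjustment over the 18 within-set relations with the factor and the first principal component (exact permutation, adjusted p = 0.0333 for both). With the number of genes with a read, r was -0.769 (rho -0.898), -0.871 (rho -0.871) and -0.741 (rho -0.749), with adjusted permutation p = 8.57e-05, 3e-05 and 0.0002. The first principal component was computed on the scaled values of the 500 most variable genes. It carried 82.2% of their variance, and none of the 3 genes was among them. With this component, r of the deposited level was 0.800 (rho 0.890), 0.898 (rho 0.908) and 0.822 (rho 0.848), with adjusted permutation p = 6e-05, 3e-05 and 3e-05. With the number of recovered reads, r was -0.183, -0.273 and -0.037 (rho -0.281, -0.280 and -0.053, adjusted permutation p = 0.482, 0.292 and 0.875). The level of the 3 genes thus moved with these measures of library composition, whose part in the levels was not tested, and no relation with depth was detectable. The share of all genes that followed these measures as closely was not counted, so the relations are not shown to be particular to the 3 genes.

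**Figure D4:**
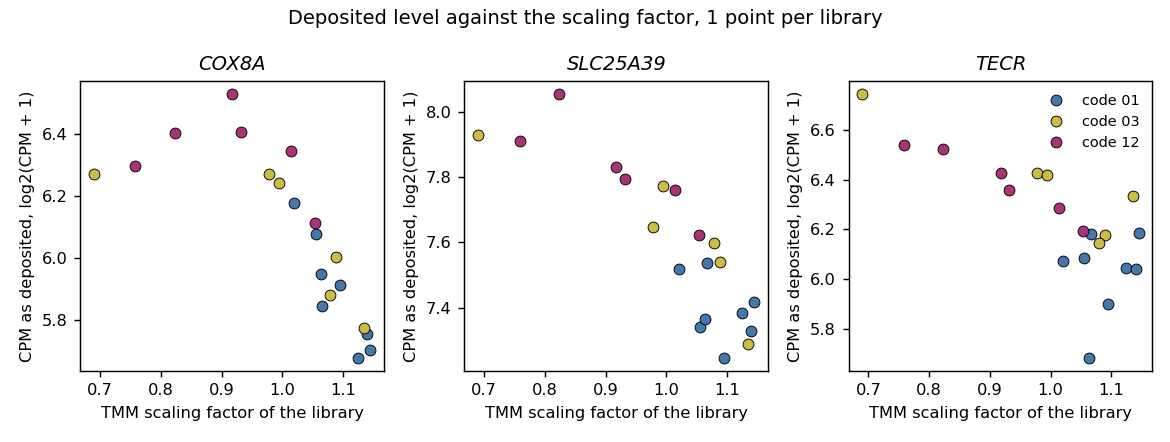
Deposited level of COX8A, SLC25A39 and TECR as log2(CPM + 1) against the TMM factor of the library, with 1 point per library coloured by the 2 digits of the column code. The levels fall as the factor rises (r of -0.761, -0.859 and -0.769), with the libraries coded 01 at factors of 1.02 or more.

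Other genes of mitochondrial, lipid and energy metabolism were taken from the study's gene list, which was chosen on these animals. It is therefore not independent evidence of a direction. The counts below for code 12 against code 01 (limma, adjusted over all genes) stand beside a table in which 30.8% of all genes rose, 31.6% fell and 62.5% were called in either direction. Of the 2 mitochondrial enzymes, both rose, where 30.8% of all genes did. ETHE1, a sulfur dioxygenase of sulfide breakdown, rose by 0.88 (SE 0.24, adjusted p = 0.00629), from a range of 20.4 to 27.0 scaled CPM to 28.7 to 78.3 scaled CPM. SUCLG2, a subunit of the GTP-forming succinyl-CoA ligase of the citric acid cycle, rose by 0.48 (SE 0.16, adjusted p = 0.0159).

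Of the 4 lipid genes, 1 rose, 2 fell and 1 did not pass, which is close to the shares of 30.8% higher and 31.6% lower over all genes. AGPAT2, an acyltransferase of phosphatidic acid synthesis, rose by 0.68 (SE 0.18, adjusted p = 0.00503). FAR1, which reduces fatty acyl-CoA to fatty alcohol in peroxisomes, fell by 0.49 on the log2 scale (SE 0.12, adjusted p = 0.00439), and SREBF2, a transcription factor of cholesterol synthesis genes, fell by 0.90 on the log2 scale (SE 0.38, adjusted p = 0.0466). The difference for MBOAT7, an acyltransferase of phosphatidylinositol remodelling, was 0.11 (SE 0.11, adjusted p = 0.376). The median over the 4 lipid genes was -0.19, against -0.01 over all genes tested, and 0.69 over COX8A, SLC25A39 and TECR.

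Of 3 glycolysis genes 2 were called, near the 62.5% of all genes, and both of these rose, TPI1 (triosephosphate isomerase) by 0.81 (SE 0.20, adjusted p = 0.00424) and PKM2 (pyruvate kinase) by 0.29 (SE 0.09, adjusted p = 0.0122), while HK1 (hexokinase) was at -0.06 (SE 0.08, adjusted p = 0.53). Both genes of the vacuolar proton pump rose (30.8% of all genes did), ATP6V0D1 by 0.66 (SE 0.14, adjusted p = 0.00277) and ATP6AP1 by 0.17 (SE 0.06, adjusted p = 0.0322). Of the 6 ribosome and proteasome genes 5 rose (30.8% of all genes did), with differences from 0.82 (PSMB5) to 1.22 (RPL36), and PSMD5 did not pass at 0.26 (SE 0.11, adjusted p = 0.0517). Their median was 1.00, above the 0.71, 0.69 and 0.62 of COX8A, SLC25A39 and TECR. None of these genes passed in the contrasts with code 03 or between the label groups, in which 0.385% (03 against 01), 0.553% (12 against 03) and 0% (labels) of all genes were called.

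**Figure D5:**
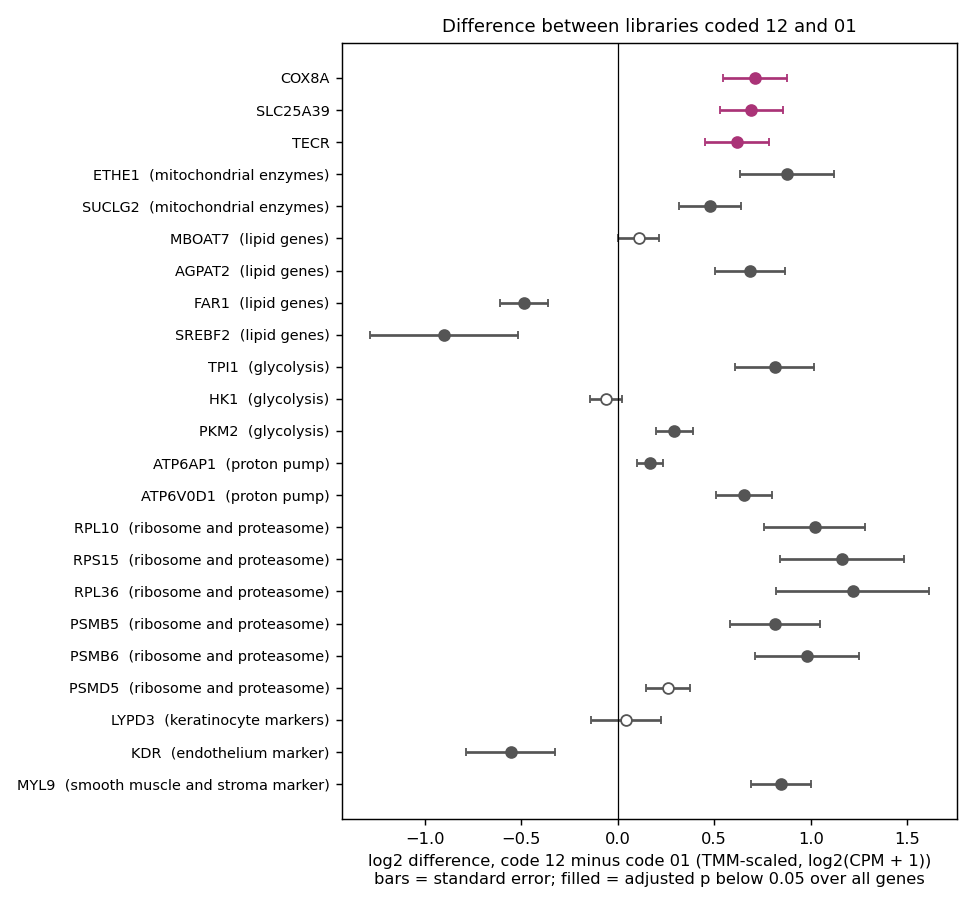
Log2 difference between the libraries coded 12 and 01 (limma on log2(scaled CPM + 1), bars give the standard error) for COX8A, SLC25A39 and TECR, for the genes of the study's list and for the marker genes. Filled points passed at an adjusted p below 0.05 over all genes. COX8A, SLC25A39 and TECR lie between 0.62 and 0.71, below 5 of the 6 ribosome and proteasome genes, which were at 0.82 or more. They lie above 3 of the 4 lipid genes, at 0.11 or less, while the lipid gene AGPAT2, at 0.68, lies within their range.

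The genes most like each of the 3 were sought by Pearson's r over the 20 libraries among 102 other genes with a symbol in the study's list. For COX8A these were CFL1 (0.980), PLP2 (0.969), SH3BGRL3 (0.964), GABARAP (0.963) and CAPNS1 (0.963). CFL1 encodes cofilin, which severs actin filaments, and GABARAP a protein of autophagosome formation. For SLC25A39 they were ACTB (0.980), PPP2R1A (0.978), SH3BGRL3 (0.978), UBL5 (0.976) and GNB2 (0.976), of which ACTB is the cytoskeletal beta-actin and GNB2 a beta subunit of heterotrimeric G proteins. For TECR they were ACTB (0.970), ATP6V0D1 (0.949), PSMB5 (0.949), ETHE1 (0.948) and TUBA4A (0.940). Among the libraries coded 01 alone, r was 0.942 for COX8A with CFL1, 0.854 for SLC25A39 with ACTB and 0.753 for TECR with ACTB, but 0.261 for TECR with PSMB5. COX8A, SLC25A39 and TECR were themselves not among each other's 5 most alike genes.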

How the data were processed

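RNA of rumen papillae from 20 steers was sequenced by the study, with 1 library per steer. Per the study's methods and the submitters' processing notes, paired reads were aligned to UMD3.1 with TopHat2 (2.0.10 in the notes) and counted per Ensembl gene with HTSeq. The authors deposited CPM, scaled to the gene-assigned reads of each library and not otherwise normalized. Strand use in counting is not given in the sources used here. The column headers hold a code that no source explains.

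The smallest CPM above 0 in a library is the worth of 1 read, and every value was a whole multiple of it within 0.02 reads, which gave back the reads per gene. Genes were compared with the moderated linear model of limma 3.58.1 (trend on) in R 4.3.3, fitted to log2(TMM-scaled CPM + 1) of the 14293 genes past filterByExpr of edgeR 4.0.16 (minimum count 10), with Benjamini-Hochberg adjustment over all of them and a threshold of 0.05. Single genes were compared by exact two-sided permutation, and correlations by 100000 permutations, or all permutations within sets, with scipy 1.17.1 and numpy 2.4.6 (Python 3.11.15). Alternatives were no scaling, RLE and upper quartile factors, a pseudocount of 0.1, no low count filter, edgeR's quasi-likelihood test and DESeq2 1.42.0 on recovered reads, the study's list in place of the labels, the 12 steers alike in both, code set, label and code letter as terms, and leaving out libraries. The code letter, the comparison within the letter B and the leave-one-out of the label comparison were added after seeing the data. The limma fit was tested on simulated data.

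Groups followed the sample labels, and the study's list was the alternative. The genes named are COX8A, SLC25A39 and TECR, the pathway and marker genes with an identifier in the study's gene list or tables, and the 5 named genes with the highest r for each. One further gene of the list is not reported here. These genes, lists and tests were chosen with earlier results of these data known. None of the identifiers matched the RefSeq gene table of assembly ARS-UCD2.0, so other cytochrome c oxidase subunits, elongases, carriers, coordinates, sequences and promoter motifs were not analysed here. The study's own fold changes and p-values were not used.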

Additional observations from a re-analysis of the deposited data

Results flagged for a closer look

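TECR stood at 153.9 scaled CPM in steer 47, far from the other 5 libraries coded 03, with a gap to the next library that was 0.749 of the range of the set. It was the 1 value set apart by Dixon's test at the 95% level among 24 groups of 4 to 10 libraries examined for the 3 genes, and chance sets apart about 1 group in 20. The value set apart was the scaled one, which was divided by the lowest factor of all libraries (0.690). The deposited level of TECR in this library, 106.2 CPM, was also the highest of the 20. The next deposited level among the libraries coded 03 was 85.1 CPM (steer 55). Steer 47 is labelled High RFI and is L-RFI in the study's list.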

How the results depend on the processing

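The higher level of COX8A, SLC25A39 and TECR with code 12 than with code 01 passed under all 10 alternatives and with each of the 20 libraries left out. The differences ranged from 0.46 to 0.77, 0.44 to 0.76 and 0.36 to 0.67 over the alternatives and from 0.67 to 0.82, 0.62 to 0.79 and 0.54 to 0.72 with 1 library left out. Without the 4 libraries that an earlier clustering had set apart (steers 47, 105, 155 and 317) they were 0.58, 0.61 and 0.50.

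The label difference of no gene passed under any setting. It was larger for COX8A and SLC25A39 within the letter B (0.41 and 0.45) and without the 4 libraries (0.22 and 0.28), against 0.06 and 0.08 in all libraries. In letter B the High RFI libraries (steers 201 and 205) are coded 01. The Low RFI ones except steer 219 are coded 03 or 12, so label and code set cannot be told apart there. Leaving out the 4 libraries likewise removes steers 47, 105 and 155, labelled High RFI and coded 03 or 12. The sign of the label difference changed for COX8A with the study's list (-0.051), with the code set as a term (-0.0038) and without steer 317 or 345 (leave-one-out range -0.019 to 0.13). For SLC25A39 it changed without the 2 steers not listed (-0.0012) and without steer 345 (-0.018 to 0.16). For TECR it changed without the 4 libraries (0.093), with the study's list (0.050), within the letter B (0.24) and without steer 47 (-0.17 to 0.0092). Set 12 minus set 03 changed sign for TECR without the 2 steers not listed (-0.0087, leave-one-out range 0.05 to 0.31). With 1 library left out, set 12 minus set 03 ranged from 0.30 to 0.54 for COX8A and from 0.21 to 0.48 for SLC25A39, and passed only without steer 47.

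Genes called between the sets coded 03 and 01 numbered 55, and 250 without the 2 steers not listed, 101 by edgeR and 14 with the code letter as a term (17 to 277 with 1 library left out, the highest without steer 281 and the lowest without steer 55 or 205). Between the sets coded 12 and 03 there were 79, and 132 in deposited CPM, 172 with upper quartile factors, 37 without the 2 steers not listed, 18 without the 4 libraries, 217 by edgeR and 33 with the code letter (8 without steer 51 to 7377 without steer 47). The F test over the 3 sets called 7679 genes, and 1871 without the 4 libraries (4715 without steer 155, 4742 without steer 345, and up to 9619). Settings that leave out libraries also have fewer samples, and the cause of these changes was not tested. The r between the 3 genes passed under all 6 alternatives, with the lowest values of 0.822, 0.614 and 0.809 in deposited CPM. Counting error was small beside the spread between libraries, with over 500 reads of each of the 3 genes per library. No paired analysis was possible, because each steer gave 1 library and the sample labels name no pairs of steers. What the letter and last digit of the column code stand for is not stated.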
